A study of Mus musculus with 4 samples.

Results

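*Cd4*, *Cd8a* and *Cd8b1*, the genes of the CD4 and CD8 co-receptors, were examined in ILC87-Ik1-ER cells after 24 h of 4-hydroxytamoxifen (4OHT). They were chosen by their measured difference between 4OHT- and ethanol (EtOH)-treated cells, so that this difference is described here and not tested. Each of the 3 genes has 1 probe set among the 21789 that the array annotation pairs with 1 gene symbol, and these stand for 19938 genes. ILC87 is a T-cell line from a thymic tumour of an Ikarosf/f Lck-cre+ mouse (strain given as C57BL/6 in the labels and as a mixed background for such mice in the methods), in which the Lck promoter drives Cre in thymocytes and Ikaros is deleted. The cells of every sample also carry the MigR1:Ik1-ER retrovirus, which encodes full-length Ikaros joined to the ligand-binding part of the oestrogen receptor and, behind an IRES, GFP, and they were sorted as GFP-positive cells. In 2 samples these cells received 100 nM 4OHT, the ligand that moves Ik1-ER into the nucleus, and in 2 they received the vehicle EtOH. RNA levels were read on Affymetrix Mouse Gene ST arrays, and the values are log2 RMA expression values. For these cells and the same treatment time, the paper reports little change in CD4, CD8 and CD3, which it names as differentiation markers. It reports that their expression increased at later times. The arrays do not measure protein, and the increases described below are those of RNA alone. Nothing says whether the 2 samples of a treatment were separate cultures, and errors and p-values may thus reflect technical spread alone. Cells lacking Ik1-ER were not treated with 4OHT among these samples, and an effect of the drug on its own cannot be told apart from one of Ik1-ER.

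CD4 and CD8 are surface proteins that bind the same MHC molecule as the T-cell receptor and bring the kinase Lck to it. CD4 acts as a single chain and binds MHC class II, whereas CD8 binds MHC class I as a pair of chains, CD8α with CD8β or CD8α with itself, and CD8β needs CD8α to reach the surface. In the thymus, the earliest T cells carry neither co-receptor (double-negative cells), their progeny carry both (double-positive cells), and mature T cells keep one. The order is set by silencers and enhancers in the *Cd4* and *Cd8* loci, at which Runx proteins, Ikaros, E proteins and chromatin remodellers are known to act.

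*Cd8a*, which encodes the CD8α chain, had log2 expression values of 6.74 and 6.45 on the EtOH arrays and 10.82 and 11.00 on the 4OHT arrays. The means were 6.59 ± 0.21 and 10.91 ± 0.13 (SD, n = 2 arrays each), a difference of 4.32 on the log2 scale (standard error 0.13 from limma), or 20.0-fold. *Cd8a* was thus dim on both EtOH arrays and bright on both 4OHT arrays, and the gap between the lower 4OHT and the higher EtOH array was 4.08. This was the largest increase among the 19938 genes. As these are bulk samples, more cells with co-receptor RNA cannot be told apart from more of this RNA per cell.

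The promoter of *Cd8a* is shown because it is the one co-receptor promoter in the RefSeq promoter table used here, and because Ikaros is the protein that 4OHT brings into the nucleus. The window covers chr6:71373177-71373476 (GRCm38.p6, plus strand), from 250 bases before to 50 bases after the annotated start of the gene, written 5′ to 3′. Capitals mark GGGAA, the core of the Ikaros site, and AGGAAA, a related motif that shares its GGAA, on either strand.
Cd8a promoter: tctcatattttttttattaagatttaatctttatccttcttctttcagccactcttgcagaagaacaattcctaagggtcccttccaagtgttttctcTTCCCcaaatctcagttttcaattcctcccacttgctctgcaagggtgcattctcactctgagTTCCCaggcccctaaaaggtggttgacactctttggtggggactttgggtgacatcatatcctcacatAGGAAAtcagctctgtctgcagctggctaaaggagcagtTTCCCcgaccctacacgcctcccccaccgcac
GGGAA was found 3 times, each time on the minus strand (TTCCC as printed), beginning at positions −152, −89 and 19. Positions count from 1 at the first base of the gene, and there is no position 0. The window held AGGAAA 1 time, at −21 on the plus strand, and AGGAAG 0 times. Of 32851 promoter windows of the same length, 62.7% held GGGAA at least once, 8.83% at least 3 times, 29.1% held AGGAAA and 35.4% held AGGAAG. The RUNX motif TGTGGT, present in 16.8% of all windows, was not in this one, and the E-box CANNTG, present in 72.3%, was found 3 times. GGGAA and both AGGAA forms contain GGAA, the core of ETS sites, and these matches are a description of letters and not of binding.

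*Cd8b1*, which encodes the CD8β chain, had log2 values of 9.17 and 9.15 with EtOH and of 11.89 and 11.79 with 4OHT. The means were 9.16 ± 0.0098 and 11.84 ± 0.064 (SD, n = 2 arrays each), which differ by 2.68 (standard error 0.075) or 6.41-fold. *Cd8b1* was lower on both EtOH arrays than on both 4OHT arrays, and its 4 values spread less within a treatment than those of the other co-receptor genes. *Cd4* had log2 values of 7.88 and 8.00 with EtOH and of 10.40 and 10.17 with 4OHT. Here the means were 7.94 ± 0.089 and 10.28 ± 0.16 (SD, n = 2 arrays each), which differ by 2.34 (standard error 0.11) or 5.08-fold. Ranked by the size of the increase among all genes, *Cd8b1* came at place 3 and *Cd4* at place 5. For none of the 3 genes did the treatments overlap. Both 4OHT arrays lay above both EtOH arrays for 32.1% of all genes, and 1.23% of all genes were higher with 4OHT at a Benjamini-Hochberg adjusted p under 0.05 in the limma fit over all probe sets.

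**Figure D1:**
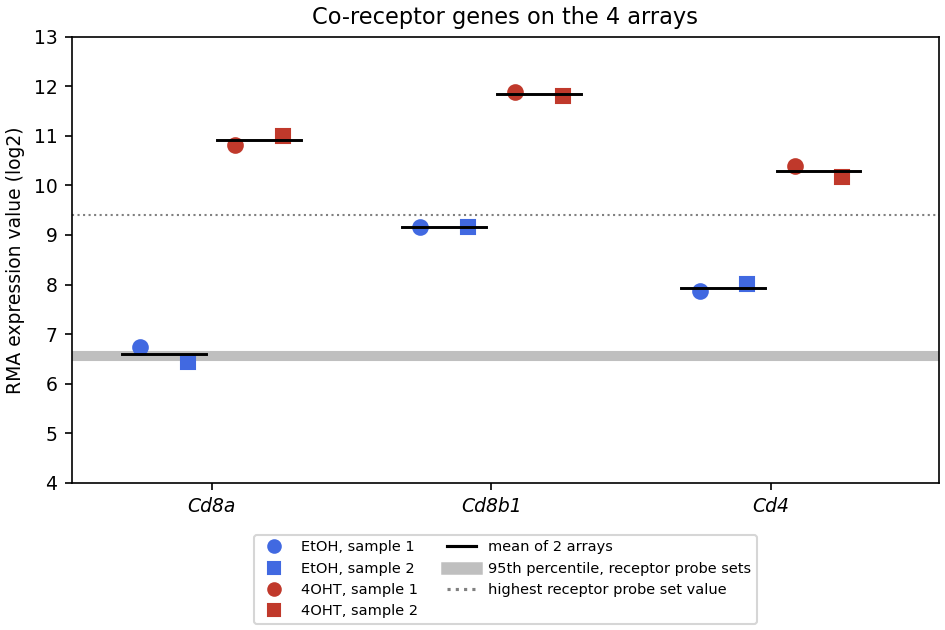
RMA expression values (log2, vertical axis) of the co-receptor genes on each of the 4 arrays, with EtOH in blue, 4OHT in red and black lines for the means of 2 arrays. The grey band spans the 95th percentiles of 1205 olfactory and vomeronasal receptor probe sets on the 4 arrays and the dotted line is their highest value (9.40); the EtOH values of Cd8a lie at the band, and all 4OHT values lie above the dotted line.

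The 3 genes differed in the size of the increase. That of *Cd8a* exceeded that of *Cd8b1* by 1.64 on the log2 scale (standard error 0.15) and that of *Cd4* by 1.98 (standard error 0.17). Between arrays of the same sample number, the excess of *Cd8a* over *Cd8b1* was 1.37 and 1.92, and the excess over *Cd4* was 1.56 and 2.39. *Cd8b1* and *Cd4* were closer, with a difference of 0.34 between their increases (standard error 0.13) and of 0.20 and 0.48 by sample number. These are differences between changes. The levels of different genes cannot be set against each other, since each probe set has its own brightness. The standard errors of the differences between increases combine those of the single genes as if these were independent. All genes were read on the same arrays, and these errors may thus be too small.

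As a guide to dim values, the co-receptor genes were placed among 1205 probe sets of olfactory and vomeronasal receptor genes, which are not expected to be used in T cells. On the EtOH arrays *Cd8a* lay above 96.8% and 94.6% of these, close to their 95th percentiles of 6.47 and 6.49. *Cd4* lay above 99.6% and 99.8% of them. *Cd8b1* with EtOH, and all of the co-receptor genes with 4OHT, exceeded every one of these probe sets on the same array. The array values carry no detection calls. Near background the array compresses differences, and a 20.0-fold difference from so low a value is less sure in size than those of *Cd8b1* and *Cd4*, which started further above the dim probe sets. The median difference between 4OHT and EtOH was 0.06 for the receptor probe sets and 0.03 for all genes.

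The deposited values cover 35556 probe sets with array medians of 7.11 to 7.16, and no array stood apart in its correlation with the others (r = 0.989 to 0.996 over probe sets, which are not independent replicates). *Ikzf1*, the gene of Ikaros, had log2 values of 12.76 and 12.79 with EtOH and of 12.91 and 12.78 with 4OHT. These overlapped (difference 0.07, adjusted p = 0.698 from limma). Whether its probes also read the retroviral transcript is not given. Among T-cell markers, *Cd3e*, *Cd3g*, *Thy1* and others were bright, and the 8 measured of 10 had EtOH means of 9.89 to 13.29, above every receptor probe set.

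The genes most like the co-receptor genes were sought as those with the smallest Euclidean distance between their 4 mean-centred log2 values. The search left out the co-receptor genes themselves and predicted genes (symbols with Gm, LOC or Rik). Among the co-receptor genes, *Cd8b1* and *Cd4* lay 0.364 apart, *Cd8a* and *Cd8b1* 1.66, and *Cd8a* and *Cd4* 2.02. As the distance uses the same contrast, this is a description over 4 arrays. For *Cd4* the nearest other gene was *Cd2*, which encodes an adhesion receptor of T cells, at a distance of 0.29. *Cd2* had log2 values of 8.01 and 8.06 with EtOH and of 10.21 and 10.36 with 4OHT. It was followed by *Trav7n-5*, a variable segment of the T-cell receptor α-chain (distance 0.43), and *BC018473* (0.62). For *Cd8b1* the nearest other genes were *Idi2*, an isopentenyl diphosphate isomerase gene (0.38), *Trav7n-5* (0.45) and *Cd2* (0.47). *Idi2* had log2 values of 6.20 and 6.33 with EtOH and of 9.14 and 9.34 with 4OHT. The same genes were the nearest ones outside the co-receptor genes for *Cd8a*, but at distances of 1.38 (*Idi2*), 1.94 (*Trav7n-5*) and 2.09 (*Cd2*), each larger than its distance to *Cd8b1*. Segments of the T-cell receptor are alike in sequence, and the value of *Trav7n-5* may include related segments. None of these 4 genes lies on chromosome 6, which holds all of the co-receptor genes.

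**Figure D2:**
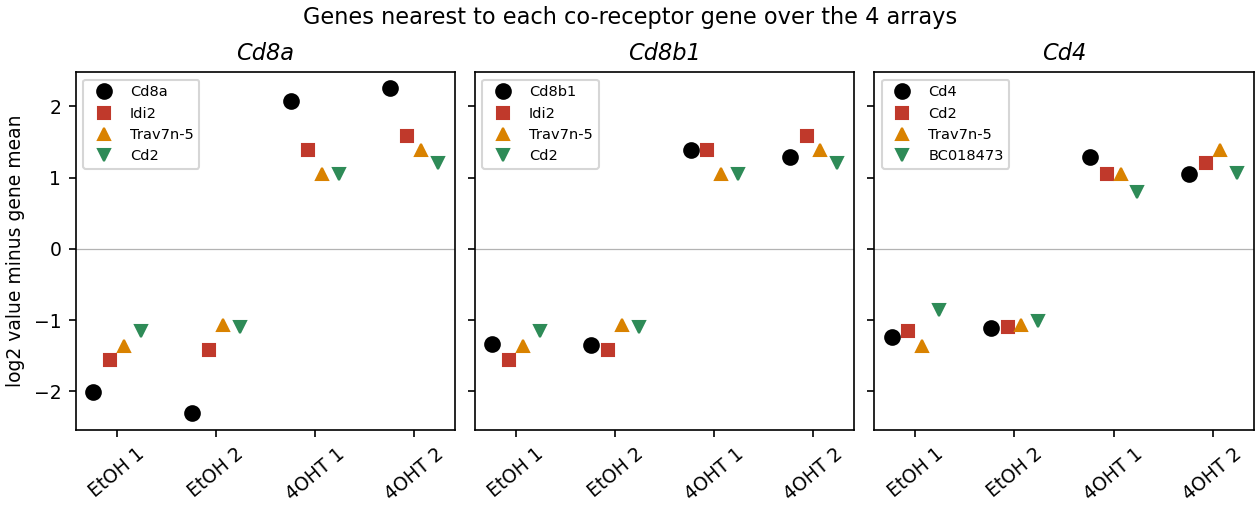
Log2 values minus the gene's mean over the 4 arrays (vertical axis) for each co-receptor gene (black) and its 3 nearest genes outside the co-receptor genes, by array. The points of Cd8b1 and Cd4 lie close to those of their nearest genes, while the points of Cd8a lie further from 0 on all 4 arrays.

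The neighbourhood of the genes was read from the RefSeq annotation (GRCm38.p6), with 10 measured genes on each side of *Cd4* and of the *Cd8* pair. *Cd8b1* (chr6:71322788-71337492) and *Cd8a* (chr6:71373427-71379171) lie 35.9 kb apart, and *Cd4* (chr6:124864693-124888247) lies 53.5 Mb from *Cd8a*. Of the 40 neighbours, 4 rose (10.0%), 1 fell (2.5%) and 35 did not pass the test, compared with 1.23% and 2.99% of all genes. Both 4OHT arrays lay above both EtOH arrays for 15 neighbours (37.5%), against 32.1% of all genes. Their median difference was 0.04.

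The closest neighbour of *Cd4* was also the one that changed most. *Gpr162*, an orphan receptor gene whose annotation ends 0.5 kb from that of *Cd4*, had log2 values of 7.61 and 7.60 with EtOH and of 9.35 and 9.28 with 4OHT. It rose 3.28-fold (difference 1.71, standard error 0.074, adjusted p = 0.00704 from limma), and both 4OHT arrays lay far above both EtOH arrays. *P3h3*, a collagen prolyl hydroxylase gene on the far side of *Gpr162* and 6.9 kb from *Cd4*, had a difference of −0.09 (adjusted p = 0.655 from limma) with overlapping arrays. On the other side, *Lag3*, which encodes a relative of CD4 that also binds MHC class II, lies 16.1 kb away. It had log2 values of 6.33 and 6.38 with EtOH and of 6.88 and 6.92 with 4OHT. *Lag3* rose 1.46-fold (difference 0.54, standard error 0.072, adjusted p = 0.0384 from limma), but its adjusted p was 0.0532 after another quantile normalization. Its mean lay above 93.9% of the receptor probe sets with EtOH, in the range of dim values, and above 96.6% with 4OHT. *Ptms*, the parathymosin gene next to it, had a difference of 0.62 without passing the test (adjusted p = 0.0616 from limma). *Atn1*, the outermost of the 10 genes on its side, fell 1.58-fold (difference −0.66, adjusted p = 0.0290 from limma). *Chd4*, which encodes the NuRD remodeller Mi2β and is the outermost gene on the other side, had a difference of 0.06 (adjusted p = 0.783 from limma).

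The direct neighbours of the *Cd8* pair showed smaller differences. *Gm1070* and *Krcc1* on one side differed by 0.16 and 0.31, and *Rmnd5a* and *Rnf103* on the other by 0.49 and 0.32. For each of these 4 both 4OHT arrays lay above both EtOH arrays, although none passed the test (adjusted p = 0.408, 0.214, 0.119 and 0.181 from limma). *Rmnd5a*, part of a ubiquitin ligase complex, lies 9.5 kb from *Cd8a* and had log2 values of 11.00 and 10.86 with EtOH and of 11.30 and 11.54 with 4OHT. The genes that passed lay further away. *Eif2ak3*, which encodes the PERK kinase of the unfolded protein response, rose 1.54-fold at 417.5 kb (difference 0.62, adjusted p = 0.0328 from limma), and *Reep1*, which encodes a protein that shapes the endoplasmic reticulum, rose 1.43-fold at 328.3 kb (difference 0.52, adjusted p = 0.0405 from limma). Without EtOH replicate 1 or 2, 0 probe sets of the whole array passed the limma test (4902 and 4739 at an unadjusted p under 0.05), and of the neighbours *Gpr162* alone passed without 4OHT replicate 1 or 2 (adjusted p = 0.0355 and 0.0443 from limma).

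**Figure D3:**
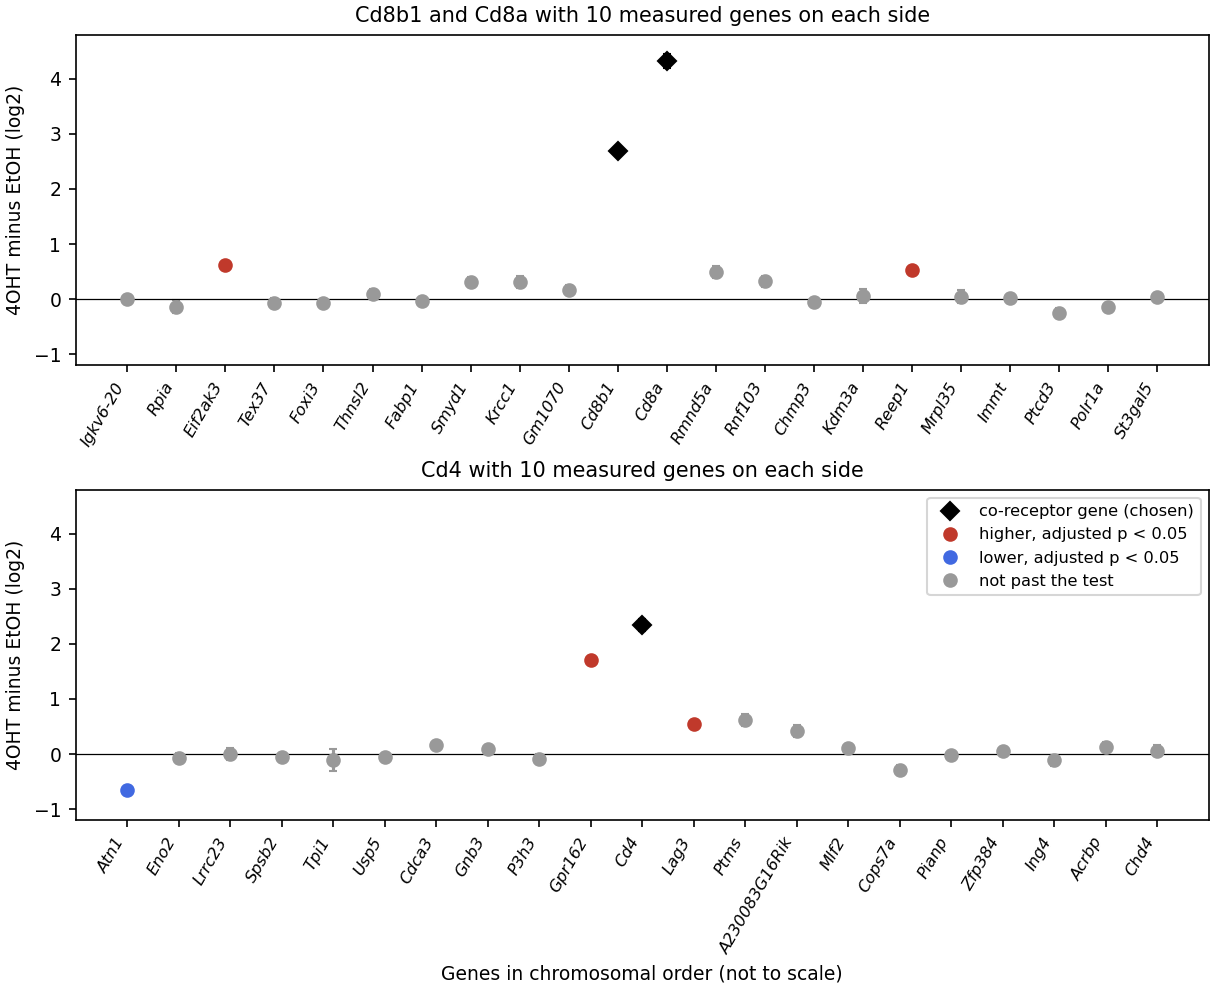
Difference between 4OHT and EtOH (log2, vertical axis, bars are standard errors from limma) of the co-receptor genes (black) and of 10 measured genes on each side, in chromosomal order. Gpr162 beside Cd4 reaches 1.71, whereas no neighbour of the Cd8 genes exceeds 0.62.

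Of 29 listed genes that act on the *Cd4* and *Cd8* loci, 27 were measured, of which 2 fell (7.41%, against 2.99% of all genes), 0 rose and 25 did not pass the limma test. Of these 25, 4 were lower and 4 higher at an unadjusted p under 0.05. Of all 27, 6 were lower and 4 higher at that p, against 11.7% and 8.74% of all genes. The median difference was 0.03, as for all genes. *Patz1*, which encodes MAZR, a repressor of *Cd8* transcription in double-negative cells, had log2 values of 10.98 and 11.08 with EtOH and of 10.48 and 10.45 with 4OHT. It fell 1.48-fold (difference −0.56, standard error 0.078, adjusted p = 0.0412 from limma). *Hes1*, a Notch-induced transcriptional repressor, fell 1.72-fold, from 10.56 and 10.45 to 9.73 and 9.72 (adjusted p = 0.0213 from limma). *Runx1*, which acts at the *Cd4* silencer in double-negative cells, had a difference of −0.37 (adjusted p = 0.105 from limma). *Runx3*, which silences *Cd4* in CD8 T cells, had a difference of 0.42 (adjusted p = 0.0765 from limma), with values of 7.18 and 7.07 against 7.53 and 7.55. For *Zbtb7b*, which encodes ThPOK, the factor of the CD4 lineage, the values overlapped (difference 0.02, adjusted p = 0.928 from limma). *Gata3*, *Tox*, *Bcl11b* and *Satb1* differed by −0.22, −0.05, 0.30 and 0.34 without passing the test (adjusted p = 0.225, 0.803, 0.141 and 0.111 from limma). Among all 27 the treatments did not overlap for 10 genes with higher (37.0%) and 9 with lower values (33.3%), against 32.1% and 24.5% of all genes. Neither *Hes1* nor *Patz1* passed once any 1 array was left out (lowest adjusted p = 0.0708 and 0.113 from limma).

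Of 15 genes whose products signal with the co-receptors, 13 were measured. Of these, 3 fell, 0 rose and for 10 the limma test was not passed (6 of them lower and 3 higher at an unadjusted p under 0.05). Of all 13, 9 were lower and 3 higher at that p, against 11.7% and 8.74% of all genes. The share that fell was 23.1%, against 2.99% of all genes, and the median difference was −0.27. *Unc119*, which encodes an activator of Lck and Fyn, had log2 values of 8.48 and 8.42 with EtOH and of 7.33 and 7.40 with 4OHT. It fell 2.12-fold (difference −1.08, standard error 0.075, adjusted p = 0.0119 from limma). *Cd3d*, the δ-chain gene of CD3, fell 1.92-fold, from 11.71 and 11.75 to 10.73 and 10.85 (adjusted p = 0.0172 from limma). *Fyn*, a kinase of the Lck family, fell 1.51-fold, from 11.03 and 11.14 to 10.50 and 10.47 (adjusted p = 0.0379 from limma). All of these calls are opposite in direction to the increases of the co-receptor genes. *Ptprc*, which encodes the phosphatase CD45 that acts on Lck, had a difference of 0.50 (adjusted p = 0.0606 from limma), and *Csk*, the kinase that opposes it, of −0.21 (adjusted p = 0.238 from limma). For 9 of the 13 genes (69.2%) both 4OHT arrays lay below both EtOH arrays, against 24.5% of all genes. With 1 array left out, *Unc119* passed without 4OHT replicate 1 (adjusted p = 0.0437 from limma), and otherwise none of the 3 did.

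Of 13 genes for the ligands of the co-receptors and for their loading, 10 were measured, since the probe sets of *H2-K1*, *H2-D1* and *H2-T3* are shared with other genes. *Cd74*, the invariant chain gene of MHC class II, fell 1.57-fold (log2 values 6.72 and 6.82 with EtOH, 6.12 and 6.13 with 4OHT, adjusted p = 0.0313 from limma), and the other 9 did not pass the test (median of all 10, 0.10). The share that fell was 10.0%, against 2.99% of all genes. *Cd74* lay above 96.8% of the receptor probe sets with EtOH and above 89.3% with 4OHT, in the range of dim values. *B2m*, the β2-microglobulin gene of MHC class I, differed by 0.0033 at a mean of 13.29 (adjusted p = 0.987 from limma). The call of *Cd74* was lost without any 1 array (lowest adjusted p = 0.0940 from limma).

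Genes of the thymocyte stages were set beside the co-receptor genes, as CD4 and CD8 mark the step from double-negative to double-positive cells. Whether the cells made this step was not tested, since RNA alone was read. Of 9 genes of the double-negative stage, *Hes1* fell (11.1%, against 2.99% of all genes) and the other 8 did not pass the test, with a median difference of −0.34. Both 4OHT arrays lay below both EtOH arrays for 8 of 9 (88.9%, against 24.5% of all genes), among them *Il2ra*, the CD25 gene (difference −0.33, adjusted p = 0.319 from limma), *Il7r* (−0.44, adjusted p = 0.0730 from limma), *Notch1* (−0.43, adjusted p = 0.141 from limma) and *Kit* (−0.34, adjusted p = 0.102 from limma). *Cd44* was the exception, with a difference of 0.61 (adjusted p = 0.0701 from limma). Of 10 measured genes of the double-positive stage, 3 rose (30.0%, against 1.23% of all genes), 1 fell (10.0%, against 2.99%) and 6 did not pass the test. Their median difference was 0.27. *Ccr9*, a chemokine receptor gene, rose 2.67-fold from 6.46 and 6.17 to 7.90 and 7.55 (adjusted p = 0.0295 from limma). The mean of *Ccr9* lay above 93.7% of the olfactory and vomeronasal receptor probe sets with EtOH, in the range of dim values, and above 99.4% with 4OHT. *Cd5*, an inhibitor of T-cell receptor signals, rose 2.50-fold from 8.16 and 8.01 to 9.40 and 9.43 (adjusted p = 0.0104 from limma), and *Ets2*, an ETS transcription factor gene, rose 1.70-fold from 11.51 and 11.67 to 12.32 and 12.38 (adjusted p = 0.0303 from limma). *Dntt*, the terminal transferase gene on the same list, fell 1.98-fold from 12.32 and 12.21 to 11.23 and 11.33 (adjusted p = 0.0166 from limma). *Cd24a* had a difference of −0.37 (adjusted p = 0.0763 from limma). Of the 10 genes, 7 had both 4OHT arrays above both EtOH arrays (70.0%, against 32.1% of all genes). For 2, *Dntt* and *Cd24a*, both lay below (20.0%, against 24.5%). The recombinase genes *Rag1* and *Rag2* had differences of 0.21 and 0.01 (adjusted p = 0.292 and 0.976 from limma), and *Rag1* was bright in both treatments (means 11.76 and 11.97). With 1 array left out, *Cd5* passed without 4OHT replicate 1 (adjusted p = 0.0365 from limma), and none of the other calls of either stage held.

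Genes of the mature lineages gave no call. Of 10 CD4 lineage genes none passed the limma test, and 2 had higher and 2 lower values at an unadjusted p under 0.05 (median difference 0.05). Of 14 CD8 lineage and cytotoxic genes none passed either, with 4 higher and 0 lower at an unadjusted p under 0.05 (median difference 0.11), against 8.74% and 11.7% of all genes. For 9 of the 14 (64.3%) both 4OHT arrays lay above both EtOH arrays, and for 0 below, against 32.1% and 24.5% of all genes. *Prf1*, the perforin gene, had log2 values of 7.06 and 6.68 with EtOH and of 7.71 and 7.74 with 4OHT (difference 0.86, adjusted p = 0.0605 from limma). *Itgae*, which encodes the integrin CD103, had a difference of 0.53 (adjusted p = 0.0944 from limma). Of these 14 genes, 8 had EtOH means below the 95th percentile of the receptor probe sets and 8 had 4OHT means below it, so that most of the list was dim in both treatments.

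**Figure D4:**
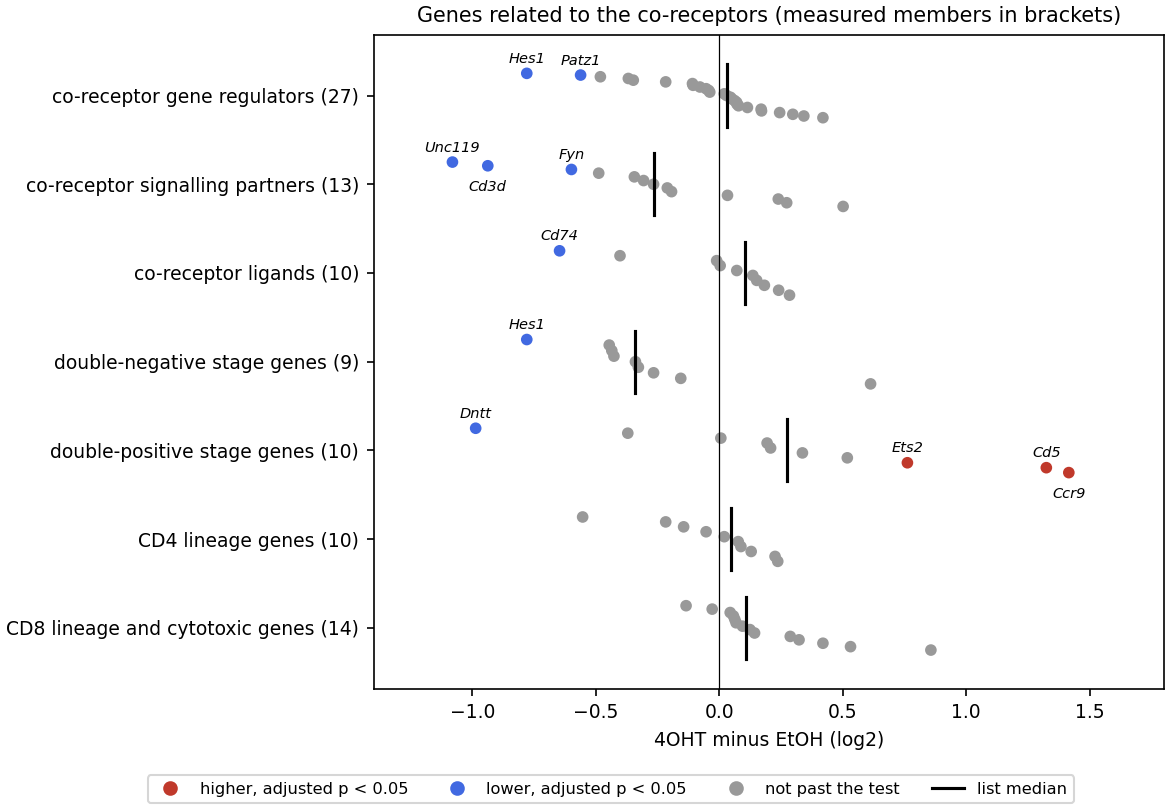
Difference between 4OHT and EtOH (log2, horizontal axis) of each measured gene of 7 lists related to the co-receptors, with red points for genes higher and blue points for genes lower at an adjusted p under 0.05 and black lines for list medians. The medians run from −0.34 for the double-negative to 0.27 for the double-positive stage genes.

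Many markers of other blood cells were dim, but not all. The brightest was *Cd68*, a lysosomal protein gene of macrophages, with means of 8.55 with EtOH, above 99.8% of the receptor probe sets, and 8.39 with 4OHT. The log2 of the summed signals of 10 myeloid and dendritic cell markers was 10.16 and 10.01 with EtOH and 10.12 and 10.06 with 4OHT. Among these markers *Lyz2* fell 2.36-fold and *Itgam* rose 1.60-fold (adjusted p = 0.0104 and 0.0239 from limma). Each is 10.0% of the list, against 2.99% lower and 1.23% higher of all genes. Of these 10, 6 had EtOH means below the 95th percentile of the receptor probe sets, and 7 had 4OHT means below it. For 5 measured B-cell markers the summed values were 8.23 and 8.16 with EtOH and 8.32 and 8.36 with 4OHT, and 3 of the 5 had EtOH means below that percentile. For 5 natural killer cell markers they were 7.18 and 7.09 with EtOH and 7.18 and 7.11 with 4OHT, and all 5 lay below that percentile in both treatments. Of 5 erythroid markers the 2 measured had differences of 0.13 and 0.15. No B-cell, natural killer cell or erythroid marker passed the limma test. At an unadjusted p under 0.05, 1, 0 and 0 were higher and none lower, against 8.74% and 11.7% of all genes. Some dendritic cells also carry *Cd4* or *Cd8a* RNA, and the part of other cells in the co-receptor values was not tested.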

How the data were processed

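RNA of ILC87-Ik1-ER cells (2 EtOH and 2 4OHT samples, 150 ng each) was hybridised to Affymetrix Mouse Gene ST 1.0 arrays. The deposited log2 values were made by the authors with Affymetrix Expression Console 1.1 and RMA, per the submitters' processing notes. RMA gives all arrays one distribution, so that a change shared by most genes cannot be seen. For the probe sets, no genome build is named in the labels or methods. A gene was read from the probe set with the highest mean among those with 1 symbol, and 21698 of the 21789 such probe sets were matched by Entrez number to RefSeq (GRCm38.p6). Treatments were compared with limma 3.58.1 in R 4.3.3 (lmFit, eBayes, two-sided, no filter or block), with Benjamini-Hochberg adjustment over 35556 probe sets and a threshold of 0.05; this was tested on simulated data. Residual degrees of freedom were 2, with 2.66 prior ones. Precision is limited by having 4 arrays.

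The genes, lists and rules were chosen with earlier results of these data known. Besides the co-receptor genes, the text names the 3 nearest genes of each, called neighbours with the 2 nearest on each side, up to 4 called genes of a list, *Ikzf1*, and further genes that illustrate a count; *Atn1*, *Chd4*, *Eif2ak3* and *Reep1* are among the neighbours. The alternatives tried were a block for the sample number, 2 normalizations, leaving out probe sets with a mean log2 value under 6 or without a single symbol, an intensity trend, an adjusted p under 0.01, 5 neighbours on each side and each array left out. The planned protein comparison was not made. Promoter sequences are those of RefSeq (GRCm38.p6), whose table held *Cd8a*.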

Additional observations from a re-analysis of the deposited data

How the results depend on the processing

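The differences of *Cd8a*, *Cd8b1* and *Cd4* kept their direction under every alternative run. Without 1 array they ranged from 4.17 to 4.47, 2.64 to 2.73 and 2.23 to 2.46, and between arrays of the same sample number they were 4.08 and 4.56 for *Cd8a* and 2.52 and 2.17 for *Cd4*. The calls of the other genes depended far more on the setting. Without 1 array, between 0 and 454 probe sets were called over the whole array, against 1123 with all arrays (454 without 4OHT replicate 1, 107 without 4OHT replicate 2, 0 without either EtOH replicate). In the same fits 0 to 1 neighbours were called (5 with all arrays), 0 regulators (2), 0 to 1 signalling partners (3), 0 ligand genes (1), 0 double-negative (1) and 0 to 1 double-positive stage genes (4), and 0 genes of either mature lineage (0). Of the 21789 probe sets with 1 symbol, 2938 were called (1070 higher, 1868 lower). That is a larger share than the 1123 of 35556 called with all probe sets. The 2938 included 10 of 40 neighbours (9 higher, 1 lower) and 8 of 27 regulators (3 higher, 5 lower). Of the signalling partners 7 of 13 were called (1 higher, 6 lower), and of the ligand genes 2 of 10 (lower). Also called were 6 of 9 double-negative (1 higher, 5 lower) and 7 of 10 double-positive stage genes (5 higher, 2 lower). Of the mature lineages, 1 of 10 CD4 lineage genes (lower) and 4 of 14 CD8 lineage and cytotoxic genes (higher) were called. With a minimum mean log2 value of 6 there were 5 signalling partners, 2 double-negative stage genes and 1 CD8 lineage gene, and with an intensity trend 4 regulators and 6 signalling partners. At an adjusted p under 0.01 the counts were 95 over the whole array, 1 for the neighbours (*Gpr162*) and 0 for each list. With 5 neighbours on each side 3 were called. Another quantile normalization and equal array medians kept the counts within 1.5 times. Some settings use fewer arrays or probe sets, and the cause of these shifts was not tested.

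The sample numbers are not said to pair the arrays, and the deviations of same-numbered arrays from their group means were weakly and negatively correlated (r = −0.13 over probe sets). With the number as a replicate block 42 probe sets were called over the whole array and 0 neighbours or list genes (*Gpr162*, adjusted p = 0.0501 from limma). With the numbers crossed, a pairing added after seeing the data, 778 probe sets were called over the whole array, 1 neighbour, 1 regulator, 0 ligand genes and 2 double-positive stage genes.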
